A study of Mus musculus with 32 samples.

Results

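The data described here are the departures from additivity between 2 gene silencings in cholesterol-loaded mouse fat cells. They rest on 16 of the 32 poly(A) RNA sequencing libraries of the study, chosen by their labels: the 4 cholesterol-loaded groups of 4 libraries each. Primary white adipocytes, fat-storing cells made from the subcutaneous fat of mice, received a scrambled control siRNA (genotype label WT), siNfe2l1 (Nfe2l1 knockdown), siAtf3 (Atf3 knockdown), or siNfe2l1 together with siAtf3 (Nfe2l1 + Atf3 knockdown). All 4 groups were then exposed for 6 h to 400 µM cholesterol carried by methyl-β-cyclodextrin, a ring of sugars that delivers sterol to membranes. The other 16 libraries have the same siRNAs with control treatment, called control medium below. Strain, age and sex of the mice, the amount of siRNA in each group and whether the control treatment held the carrier are not given in the sources used here. The study asked how Nfe2l1 and Atf3 shape the handling of cholesterol by adipocytes.

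Nfe2l1 encodes a CNC-family transcription factor of the endoplasmic reticulum membrane that raises proteasome genes when protein degradation falls short, and it is known to bind cholesterol. Atf3 encodes a stress-induced factor of the ATF and CREB family that can form dimers with other basic leucine zipper proteins and often represses its targets. When 2 factors act independently on a gene, the effects of losing them multiply, which is additivity on the log2 scale. A departure shows that the effect of one silencing on the level of an mRNA differed with the state of the other.

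For each gene the departure was the effect of siAtf3 in Nfe2l1-silenced cells (both siRNAs against siNfe2l1) minus its effect in cells with the scrambled siRNA (siAtf3 against scramble), in log2 units. The same number results when the roles of the siRNAs are exchanged. A positive departure means that cells with both siRNAs held more of the mRNA than the product of the separate effects gives, and such a gene is called higher. A negative departure means that they held less, and the gene is called lower. Levels are CPM values (counts relative to library size) on library sizes scaled by TMM (trimmed mean of M-values), which set levels of the same gene side by side but do not compare genes of different length. Errors of levels are SDs of 4 libraries, errors of log2 values are standard errors (SE), and a gene was called when its adjusted p in edgeR's quasi-likelihood test was below 0.05.

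The cholesterol libraries held 23457384 to 28391112 counted reads. In a principal component analysis of 1000 variable genes, component 1 (44.97% of the variance) placed both groups that received siAtf3 at 11.6 to 18.5 and the other groups at -22.7 to -5.99. Within siNfe2l1, libraries 1 and 2 lay at -19.6 and -13.7, nearer to the scramble libraries than libraries 3 and 4, at -7.27 and -5.99. On the second component (11.17%), library 1 of scramble (13.9) and library 1 of siAtf3 (11.9) were the farthest of their groups. The median coefficient of variation of a gene was 8.53% with scramble and 7.94% with siNfe2l1, against 5.61% with siAtf3 and 5.08% with both. All 22 genes of the adipocyte identity list were measured, and their summed level was 25580 to 32270 CPM per library, Adipoq (adiponectin) alone reaching group means of 823 to 969 CPM. Markers of other cells were also present: the fibroblast and precursor list summed to 7954 to 16900 CPM, the macrophage list to 152.6 to 324.2 CPM and the endothelial list to 366.6 to 697.1 CPM. Libraries of a group are labelled as biological replicates, and whether they came from separate mice is not stated, so the p-values measure the spread between these libraries.

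Both target mRNAs were reduced by their siRNAs. Nfe2l1 stood at 775.4, 785.9, 842.0 and 742.3 CPM in scramble libraries 1 to 4, at 129.0, 127.4, 109.8 and 94.66 CPM with siNfe2l1, at 754.0, 714.8, 723.5 and 726.6 CPM with siAtf3, and at 155.4, 150.0, 158.5 and 146.3 CPM with both. Every library with both siRNAs lay above every siNfe2l1 library, and the remaining Nfe2l1 mRNA was 14.65% of scramble after siNfe2l1 and 20.9% of siAtf3 after both. Nfe2l1 was itself called higher, at 0.51 ± 0.10 (adjusted p = 0.016), and it remained called in each of 16 fits that left out a different library. Atf3 stood at 541.4, 299.2, 424.3 and 271.6 CPM with scramble, at 460.7, 277.9, 159.9 and 129.2 CPM with siNfe2l1, at 51.6, 36.95, 36.38 and 35.63 CPM with siAtf3, and at 52.66, 45.9, 50.17 and 49.04 CPM with both. The remaining Atf3 mRNA was 10.45% after siAtf3 and 19.24% after both, relative to the matching group without siAtf3. The Atf3 departure of 0.88 ± 0.50 did not pass (adjusted p = 0.407), and the siNfe2l1 libraries spread widely for this gene. The part of these differences in remaining target mRNA in the departures below was not tested.

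**Figure D1:**
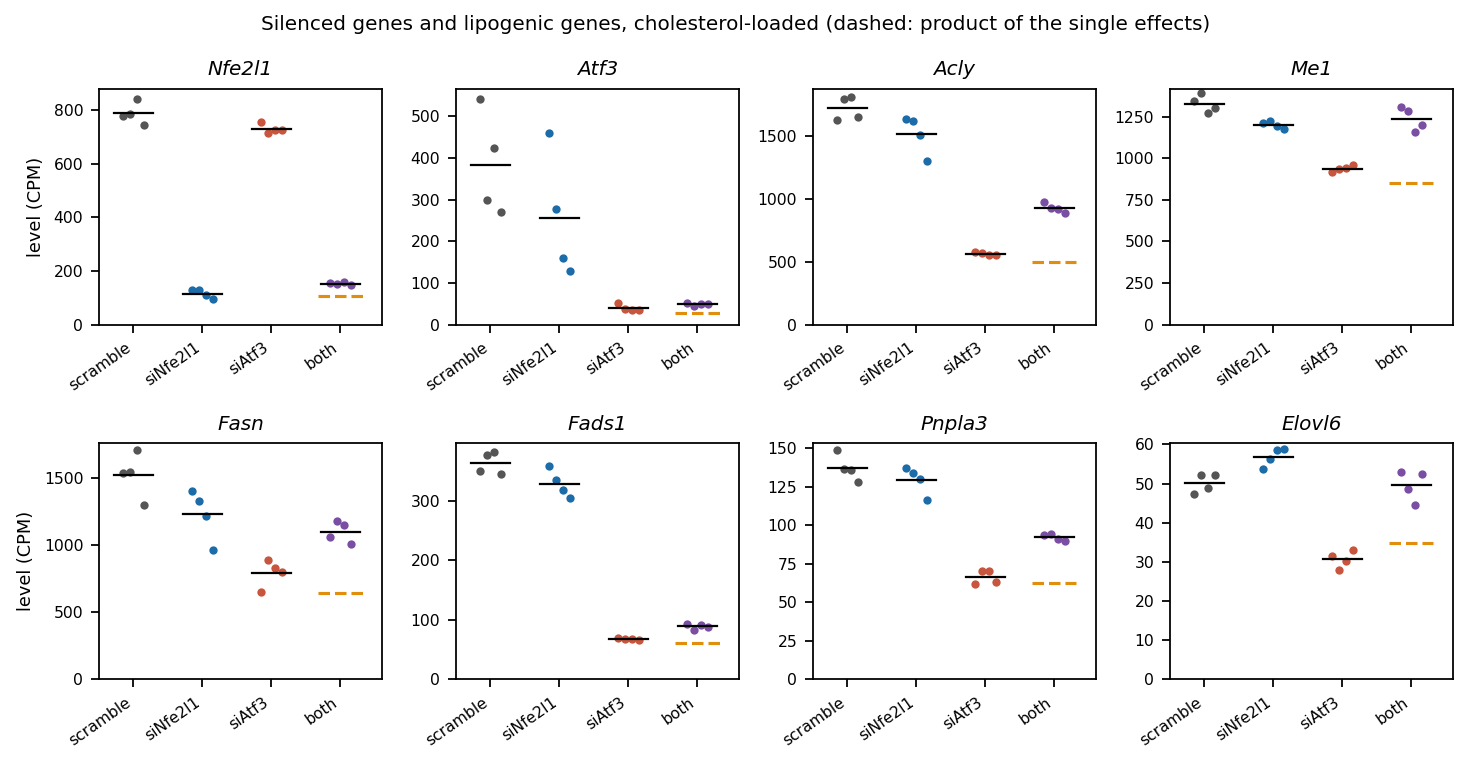
Levels in CPM (vertical axes, from 0) of the silenced genes Nfe2l1 and Atf3 and of 6 lipogenic genes in the 4 cholesterol-loaded groups (horizontal axes); points are libraries, black lines group means and dashed orange lines the product of the separate effects. For Acly the libraries with both siRNAs lie at 887.6 to 975.0 CPM, above the product of 497 CPM.

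Fewer genes were called for a departure from additivity than for the siRNA effects given below, and most of those called were upward. A departure compares 4 group means and has a larger SE than the effect of 1 siRNA. For Acly, the SE was 0.089 for the departure and 0.065 for siAtf3 against scramble. The counts are therefore not at equal power, and few calls do not show that most genes were additive. Of 16154 genes tested, 259 (1.6%) were called: 175 higher (1.08%) and 84 lower (0.52%). Calls of this fit in each gene list below are to be read beside these shares. The median departure of all genes was -0.0039, the median size among called genes was 0.49, and 19 called genes exceeded 1 in size (10 higher and 9 lower). The split depended on scaling: with library totals in place of TMM, 74 genes were called higher and 132 lower. At an unadjusted p below 0.05 there were 2588 of the 16154 genes, the background for list counts at that threshold. The median SE of a departure was 0.142. Some other fits called more genes, and their list counts below are to be read beside their own totals. These were 367 higher and 191 lower with DESeq2's Wald test, and 475 and 390 in the fit of all 8 groups. They were 524 and 402 without siNfe2l1 library 1, and 697 and 573 without the 4 libraries numbered 1.

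With siNfe2l1 present, siAtf3 was called for fewer genes. In scramble cells siAtf3 called 3759 genes up (23.3%) and 3988 down (24.7%), and in Nfe2l1-silenced cells 2419 up (15%) and 2748 down (17%). These comparisons share no library. Across the 11091 genes with an average log2 CPM of 2 or more, the slope of the second response on the first was 0.63. Their r was 0.87, a description across genes, which are not independent replicates. The siNfe2l1 response was called for 1054 genes up (6.52%) and 946 down (5.86%) without siAtf3, and for 477 up (2.95%) and 285 down (1.76%) with it.

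Genes called higher were mostly genes that siAtf3 lowered in scramble cells, and that it lowered less, did not detectably change or raised in Nfe2l1-silenced cells. Their median siAtf3 effect was -0.68 with scramble and -0.20 with siNfe2l1, and their median siNfe2l1 effect was -0.23 without siAtf3 and 0.24 with it. Of the 175, 87 were called for siAtf3 in the same direction in both settings, 69 with scramble but not with siNfe2l1, 6 with siNfe2l1 but not with scramble, and 13 in opposite directions. Genes called lower were the mirror image, with a median siAtf3 effect of 0.66 with scramble and 0.07 with siNfe2l1. Of these 84, 34 were called in the same direction in both settings, 30 with scramble but not with siNfe2l1, 11 with siNfe2l1 but not with scramble and 9 in opposite directions. These effects are made of the same libraries as the departures and describe them without adding evidence.

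**Figure D2:**
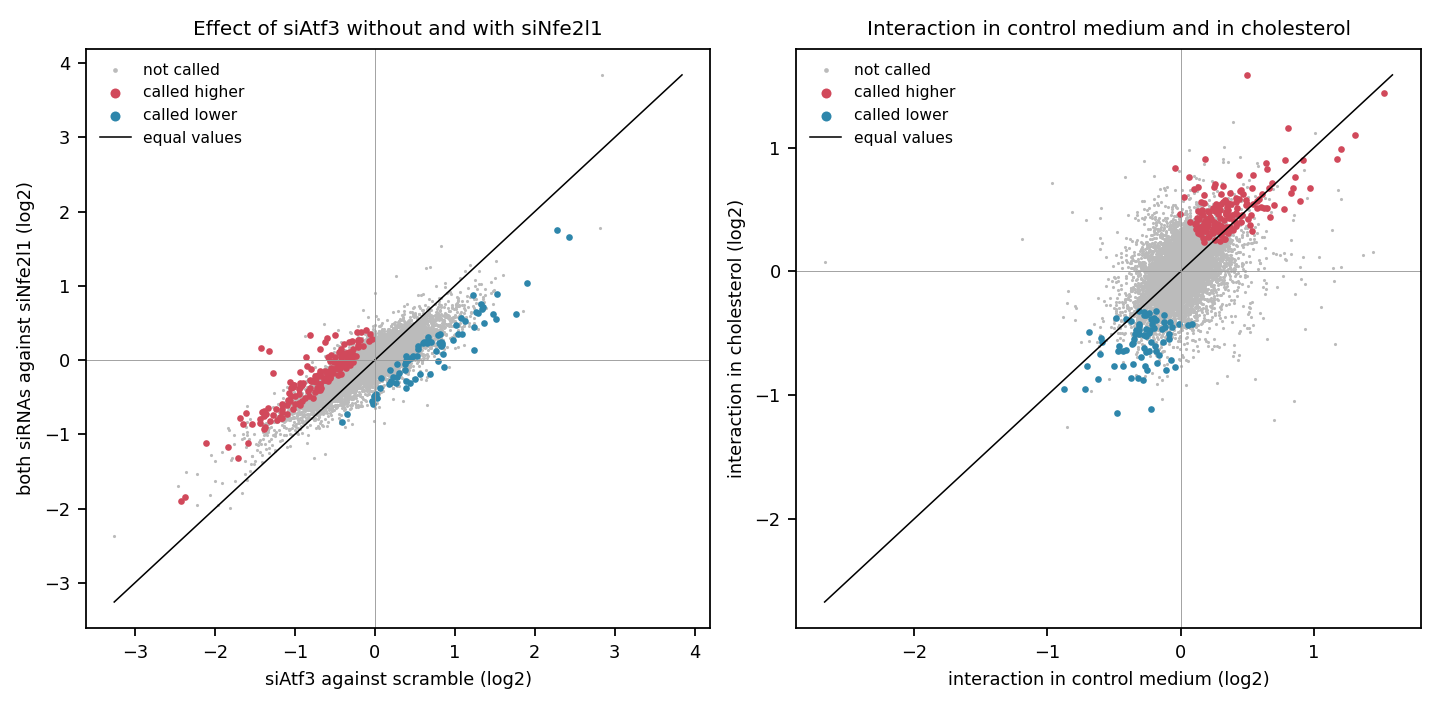
Left, log2 effect of siAtf3 in scramble cells (horizontal axis) and in Nfe2l1-silenced cells (vertical axis) after cholesterol loading. Right, the departure from additivity in control medium (horizontal) and after cholesterol (vertical), both in log2. Points are genes with an average log2 CPM of 2 or more. Red marks the 166 of them called higher after cholesterol, blue the 75 called lower and grey the others. The black line marks equal values.

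Fatty acid synthesis held the most called genes of the 26 lists examined. This pathway turns citrate exported from mitochondria into acetyl-CoA, joins it into palmitate, and then elongates and desaturates the product, and it is a main task of adipocytes. Of 16 listed genes, all measured, 7 were called higher and 0 lower, against 1.08% and 0.52% of all genes, and the list median was 0.44 against -0.0039. The list was chosen with earlier results of these data known. With DESeq2's Wald test 9 were called, with library totals 7, and over all other settings the number called higher lay between 6 and 9.

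Acly, the ATP citrate lyase that makes cytosolic acetyl-CoA from citrate, gave the smallest p of all listed genes. Its level was 1633, 1797, 1816 and 1655 CPM in scramble libraries 1 to 4, 1638, 1620, 1513 and 1303 CPM with siNfe2l1, 580.7, 568.5, 555.2 and 556.4 CPM with siAtf3, and 975.0, 926.3, 921.5 and 887.6 CPM with both. The siAtf3 and both-siRNA libraries did not overlap, and both groups lay below all libraries without siAtf3. Cells with both siRNAs held 1.86 times the 497 CPM that the product of the separate effects gives, a departure of 0.90 ± 0.09 (adjusted p = 2.4e-05). The authors' table places Acly (ENSMUSG00000020917) at chr11:100367179-100418826 on the minus strand of GRCm39. Slc25a1, the mitochondrial citrate carrier that supplies this enzyme, was on no list and was picked after its values were seen: it had 475 ± 34 CPM with scramble, 473 ± 23 with siNfe2l1, 182 ± 2.6 with siAtf3 and 280 ± 8.1 with both, and a departure of 0.63 ± 0.08 (adjusted p = 0.00021).

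Me1, the malic enzyme that yields NADPH for fatty acid synthesis (ENSMUSG00000032418, chr9:86463424-86578006, minus strand), was lowered by siAtf3 with scramble and not called for siAtf3 with siNfe2l1. It stood at 1345, 1392, 1272 and 1304 CPM with scramble, 1212, 1225, 1196 and 1174 CPM with siNfe2l1, 917.6, 937.2, 939.6 and 957.8 CPM with siAtf3, and 1307, 1284, 1160 and 1199 CPM with both. The both-siRNA libraries overlapped those of siNfe2l1 and scramble, and all of them lay above the siAtf3 libraries. The siAtf3 effect on Me1 was -0.50 ± 0.05 with scramble and 0.04 ± 0.05 with siNfe2l1, a departure of 0.54 ± 0.07 (adjusted p = 0.00029).

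Fasn, the fatty acid synthase, stood at 1531, 1539, 1704 and 1296 CPM with scramble, 1401, 1328, 1215 and 959.7 CPM with siNfe2l1, 647.7, 889.1, 829.0 and 800.0 CPM with siAtf3, and 1054, 1178, 1149 and 1007 CPM with both. Its both-siRNA libraries lay above all siAtf3 libraries and inside the range of siNfe2l1. The departure of 0.78 ± 0.16 was called (adjusted p = 0.024), and 12 of the 16 fits without 1 library called it.

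Of the listed enzymes that extend or desaturate fatty acids, Fads1, Elovl6 and Scd1 were called higher. Scd2 (0.22 ± 0.11), Fads2 (0.20 ± 0.07) and Elovl5 (0.07 ± 0.07) were not. Fads1, the delta-5 desaturase, had 363 CPM with scramble, 329 with siNfe2l1, 67.7 with siAtf3 and 88.5 with both as group means, so that most of its loss under siAtf3 remained (departure 0.53 ± 0.08). Elovl6, which elongates palmitate, had 50.1 ± 2.4 CPM with scramble, 56.9 ± 2.3 with siNfe2l1, 30.7 ± 2.2 with siAtf3 and 49.6 ± 3.9 with both (departure 0.51 ± 0.09). For Elovl6 the libraries with both siRNAs overlapped those with scramble and lay above all with siAtf3. Scd1, the stearoyl-CoA desaturase and a very abundant adipocyte mRNA, had 28961 ± 2753 CPM with scramble, 25334 ± 353 with siNfe2l1, 22580 ± 423 with siAtf3 and 26759 ± 1123 with both (departure 0.44 ± 0.08, adjusted p = 0.0086). Pnpla3, a lipid droplet protein regulated with lipogenesis, had 128.2 to 149.2 CPM with scramble, 116.5 to 137.2 with siNfe2l1, 61.7 to 70.37 with siAtf3 and 89.85 to 94.28 with both (departure 0.56 ± 0.09). Me1, Acly, Scd1, Fads1, Elovl6 and Pnpla3 were each called in all 16 fits without 1 library.

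The regulators of the pathway were not called. Srebf1, which encodes the SREBP1 activator, had a departure of -0.48 ± 0.23 (adjusted p = 0.319), and Mlxipl, which encodes ChREBP, had -0.0057 (its group means were 184, 159, 167 and 143 CPM in the order scramble, siNfe2l1, siAtf3, both). Thrsp, a lipogenic cofactor, missed the threshold with 0.50 ± 0.13 (adjusted p = 0.0616), and Acaca, the acetyl-CoA carboxylase, had 0.32 ± 0.11 (adjusted p = 0.162).

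Promoter sequences of RefSeq (build GRCm38.p6; windows from 250 bases before to 50 after the start) were available for 5 of the 7 called lipogenic genes. The windows of Me1 and Pnpla3 are shown because they are those among the 5 with a match to a motif searched, and capitals mark the match. The motifs, searched on both strands, were the core bound by CNC factors with small Maf proteins (TGACNNNGC), the cAMP response element bound by ATF and CREB factors (TGACGTCA), the E-box (CACGTG) and a sterol regulatory element (TCACNCCAC). The Me1 window is on the minus strand of chr9:86695865-86696164 and the Pnpla3 window on the plus strand of chr15:84167566-84167865, each written 5′ to 3′ along its gene.
Me1: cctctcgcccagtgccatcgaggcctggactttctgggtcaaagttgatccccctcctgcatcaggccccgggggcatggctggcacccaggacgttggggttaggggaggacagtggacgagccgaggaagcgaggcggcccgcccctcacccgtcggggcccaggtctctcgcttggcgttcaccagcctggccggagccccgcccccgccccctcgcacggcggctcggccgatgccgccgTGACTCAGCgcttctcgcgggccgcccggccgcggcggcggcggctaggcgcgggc
Pnpla3: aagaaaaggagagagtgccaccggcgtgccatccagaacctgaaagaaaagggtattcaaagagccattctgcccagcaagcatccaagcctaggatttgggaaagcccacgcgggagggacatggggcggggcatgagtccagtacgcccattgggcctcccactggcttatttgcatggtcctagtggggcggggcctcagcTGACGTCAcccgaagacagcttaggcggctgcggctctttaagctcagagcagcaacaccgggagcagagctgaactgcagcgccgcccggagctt
The Me1 match is the CNC-Maf core and the Pnpla3 match the cAMP response element. Among 11329 tested genes with a promoter window, 16.9% held the CNC-Maf core, as did 22 of 130 genes called higher (16.9%) and 6 of 63 called lower (9.52%). The cAMP response element was in 3.41% of all, in 4 of the 130 (3.08%) and in 0 of the 63. The E-box was in 11.5% of all, in 12 of the 130 (9.23%) and in 11 of the 63 (17.5%), and the sterol element in 1.46% of all, in 2 of the 130 (1.54%) and in 0 of the 63. A match describes letters in this window and is not a bound site.

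Of 25 listed genes of cholesterol synthesis and uptake, 4 were called higher and 0 lower, with a list median of 0.21 and 6 calls by DESeq2. They were Acat2, a cytosolic thiolase at the entry of the pathway (0.52 ± 0.11), Pmvk, the phosphomevalonate kinase (0.48 ± 0.10), Nsdhl, a sterol dehydrogenase (0.37 ± 0.08), and Sqle, the squalene epoxidase (0.36 ± 0.08). Acat2 had 93.09 to 117.8 CPM with scramble, 82.93 to 102.4 with siNfe2l1, 58.62 to 63.54 with siAtf3 and 72.69 to 85.48 with both, and only its siAtf3 libraries were apart from all others. Hmgcs1, the HMG-CoA synthase early in the pathway, had a negative departure that did not pass (-0.29 ± 0.11, adjusted p = 0.201). It was called lower in 2 other settings. Of the 25 departures, 12 positive and 3 negative had an unadjusted p below 0.05. The count called higher rested on few libraries. It was 0 of the 25 without siNfe2l1 libraries 3 and 4, 1 without siNfe2l1 library 3 alone, and 8 in the fit of all 8 groups. The fit of all 8 groups was 1 of the 2 settings that called Hmgcs1 lower (-0.28 ± 0.08, adjusted p = 0.042). Without the 4 libraries numbered 1, 3 of the 25 were called lower, beside 573 of all genes.

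Among 15 LXR targets and sterol efflux genes, which answer to oxidised sterols, 1 was called lower and 0 higher. Of the 15 departures 10 were positive, with a median of 0.06 (-0.01 with library totals), and 5 positive and 1 negative had an unadjusted p below 0.05. Without the 4 libraries numbered 1, 3 were called higher and 3 lower, beside 697 and 573 of all genes. Abcg1, a transporter that moves cholesterol out of cells, had 260.0 to 303.9 CPM with scramble, 305.5 to 333.0 with siNfe2l1, 413.5 to 460.6 with siAtf3 and 359.6 to 390.1 with both, so that its 4 groups did not overlap. Its departure was -0.37 ± 0.08 (adjusted p = 0.022), since siAtf3 raised it by 0.61 ± 0.06 with scramble and by 0.24 ± 0.06 with siNfe2l1, and 11 of 16 fits without 1 library called it. Abca1, the transporter that loads lipid-poor apolipoproteins, had -0.06 ± 0.19 (adjusted p = 0.897), and the sign of this value changed with single libraries.

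Of 22 adipocyte identity genes 4 were called higher and 0 lower, with a list median of 0.15. DESeq2 called 7, and the 16 omissions gave 3 to 5 higher. With library totals 2 were called higher and the median was 0.07, and the fit of all 8 groups called 1 lower. Mrap, the melanocortin receptor accessory protein, had 158.4 to 195.5 CPM with scramble, 125.2 to 144.3 with siNfe2l1, 84.17 to 86.66 with siAtf3 and 93.14 to 102.0 with both (departure 0.51 ± 0.09, adjusted p = 0.0056). Gpd1, the glycerol-3-phosphate dehydrogenase that supplies the backbone of triglycerides, had 318.0 to 359.9 CPM with siAtf3 and 422.9 to 440.0 with both, against 712.8 to 790.6 without siAtf3 (departure 0.37 ± 0.07). Dgat1, which forms triglycerides (0.50 ± 0.10), and Lpl, the lipoprotein lipase (0.27 ± 0.06), were the others, and Lpl was called in only 4 of the 16 fits without 1 library. Adipoq was not called, at 0.12 ± 0.07 (adjusted p = 0.44).

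Ucp1, the uncoupling protein of brown and beige fat (ENSMUSG00000031710, chr8:84016981-84025081, plus strand), had the highest departure among members of the 26 lists. It stood at 22.87, 17.26, 19.35 and 15.89 CPM with scramble, 11.2, 8.226, 8.297 and 7.434 CPM with siNfe2l1, 7.488, 6.311, 8.348 and 7.858 CPM with siAtf3, and 10.16, 8.66, 9.864 and 9.372 CPM with both. Either siRNA alone lowered it, and the libraries with both lay inside the siNfe2l1 range and above every siAtf3 library, at 2.72 times the product of 3.50 CPM. The departure was 1.44 ± 0.18 (adjusted p = 0.00029), called in all 16 fits without 1 library. Of the 12 thermogenic genes, Cox8b, a subunit of cytochrome oxidase typical of brown fat (0.77 ± 0.18), and Elovl3, a fatty acid elongase of brown fat (0.91 ± 0.23), were also called higher. These calls were less steady, at 2 and 3 of the 16 fits, and the number of the 12 called higher lay between 1 and 4 over all settings. Ppargc1a, a coactivator of the thermogenic program, had 0.77 ± 0.35 (adjusted p = 0.304).

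**Figure D3:**
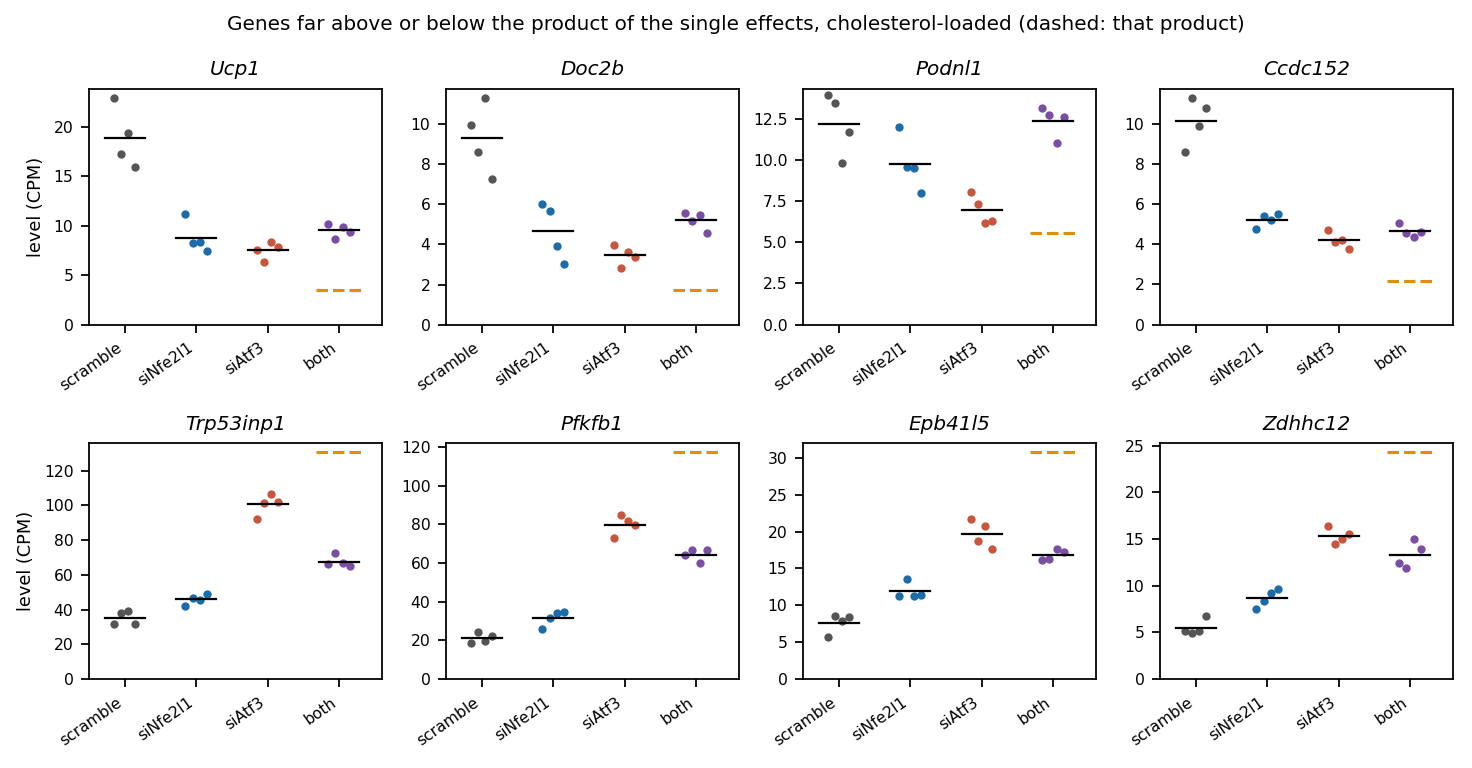
Levels in CPM (vertical axes, from 0) of 4 genes called higher (upper row) and 4 called lower (lower row) in the 4 cholesterol-loaded groups (horizontal axes); points are libraries, black lines group means and dashed orange lines the product of the separate effects. The both-siRNA libraries of Ucp1, 8.66 to 10.16 CPM, lie above the line at 3.50 CPM, and those of Trp53inp1, 65.29 to 72.46 CPM, below the line at 131 CPM.

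Other genes with large upward departures were scarce mRNAs. Doc2b, a calcium sensor of vesicle fusion, had 7.262 to 11.29 CPM with scramble, 3.003 to 6.031 with siNfe2l1, 2.845 to 3.969 with siAtf3 and 4.565 to 5.589 with both (departure 1.59 ± 0.26, adjusted p = 0.0037). Podnl1, an extracellular leucine-rich repeat protein, had 6.149 to 8.061 CPM with siAtf3 and 11.05 to 13.13 with both, the latter inside the scramble range of 9.799 to 13.92 (departure 1.16 ± 0.18). Sorcs2, a sorting receptor, was changed by siAtf3 in opposite directions, by -0.60 ± 0.10 with scramble and 0.30 ± 0.10 with siNfe2l1 (departure 0.90 ± 0.14, adjusted p = 0.0023). Podnl1 was likewise called in both directions, at -0.81 ± 0.13 and 0.34 ± 0.12. Ccdc152 (1.10 ± 0.15) overlaps the abundant Selenop by 439 bases on the opposite strand, and H1f4, a linker histone (0.99 ± 0.14), overlaps the histone gene H2bc6 by 496 bases on the same strand. Selenop (0.25 ± 0.06) and H2bc6 (0.67) were called higher as well, and since the strand setting of the counting is not given in the sources used here, the values of Ccdc152 and H1f4 are uncertain. Phospho1 (0.91 ± 0.21), which overlaps Zfp652 by 7642 bases, and Efna2, an ephrin ligand (0.83 ± 0.20), completed the 10 highest and were called in 5 and 2 of the 16 fits without 1 library.

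The genes called lower with the smallest p among those named were raised by siAtf3, and raised less in Nfe2l1-silenced cells. Trp53inp1, a p53-induced protein of autophagy and cell death (ENSMUSG00000028211, chr4:11156431-11174379, plus strand), had 31.86, 38.32, 39.28 and 31.81 CPM with scramble, 42.26, 46.77, 45.76 and 49.22 CPM with siNfe2l1, 91.98, 101.6, 106.7 and 102.0 CPM with siAtf3, and 66.31, 72.46, 66.7 and 65.29 CPM with both. Its 4 groups did not overlap, and those with both siRNAs stood at 0.52 times the product of 131 CPM (departure -0.95 ± 0.10, adjusted p = 4.2e-05). It was the only called gene among 17 p53 targets, whose median departure was 0.08. Pfkfb1, a regulator of glycolytic flux, had 18.85 to 24.55 CPM with scramble, 25.69 to 34.53 with siNfe2l1, 72.79 to 84.89 with siAtf3 and 60.07 to 66.83 with both (departure -0.86 ± 0.12, adjusted p = 0.001). Zdhhc12, a palmitoyltransferase (-0.86 ± 0.15), and Epb41l5, a membrane skeleton protein (-0.86 ± 0.15), had the same pattern at levels of 4.942 to 16.37 CPM and 5.739 to 21.73 CPM. These 4 genes were called in all 16 fits without 1 library. Pfkfb1 overlaps Apex2 by 1640 bases on the opposite strand.

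The remaining genes of the 10 lowest were called in fewer fits. Pik3r3, a regulatory subunit of phosphoinositide 3-kinase, had a departure of -1.11 ± 0.24 and was called in 8 of 16, and its siNfe2l1 libraries 1 and 2 (9.125 and 11.35 CPM) lay below libraries 3 and 4 (15.34 and 17.65 CPM). Plppr4 (-0.95 ± 0.23) and Skp2, a subunit of a ubiquitin ligase (-0.80 ± 0.20), were called in 4, Ly9, a receptor of leukocytes (-0.87 ± 0.21), in 6, Slit2, a guidance factor (-0.80 ± 0.20), in 2, and Cd5l in 1. Skp2 overlaps Lmbrd2 by 14876 bases on the opposite strand.

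Cd5l, a secreted protein of macrophages, had the lowest departure of the named genes, at -1.15 ± 0.27 (adjusted p = 0.046). It stood at 4.259 to 7.502 CPM with scramble, 12.02 to 23.84 with siNfe2l1, 18.69 to 25.54 with siAtf3 and 25.43 to 31.23 with both. The siNfe2l1 and siAtf3 ranges overlapped, and 1 siAtf3 library reached into the range with both. Of 16 macrophage markers 1 was called lower, Laptm5, a lysosomal protein of blood cells (-0.49 ± 0.12, called in 2 of 16 fits), and 0 higher. The list median was -0.48, 15 of the 16 departures were negative and 8 had an unadjusted p below 0.05. DESeq2 called 3. The summed level of the 16 markers was 152.6 to 184.1 CPM with scramble, 275.5 to 324.2 with siNfe2l1, 163.7 to 206.2 with siAtf3 and 246.9 to 271.7 with both. In such bulk libraries fewer cells of a type and less RNA per cell cannot be told apart, and the part of macrophages in the values of Cd5l, Ly9 and Laptm5 was not tested.

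Few markers of fibroblasts, precursors and smooth muscle were called. Pdgfrb, a growth factor receptor of precursors and pericytes, was called higher among 12 measured fibroblast and precursor markers (0.48 ± 0.11, 6 of 16 fits), while the list sum was 13530 to 14690 CPM with scramble, 15430 to 16900 with siNfe2l1, 7954 to 8825 with siAtf3 and 9436 to 10600 with both. Mylk, a myosin kinase, was called lower among 10 smooth muscle and pericyte markers (-0.50 ± 0.12, 2 of 16 fits). In that list DESeq2 called 3, and edgeR called 3 lower and 1 higher without siNfe2l1 library 1 and in the fit of all 8 groups. None of 11 endothelial markers and none of 3 measured lymphocyte and mast cell markers was called by edgeR or DESeq2, with 0 and 1 at an unadjusted p below 0.05.

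**Figure D4:**
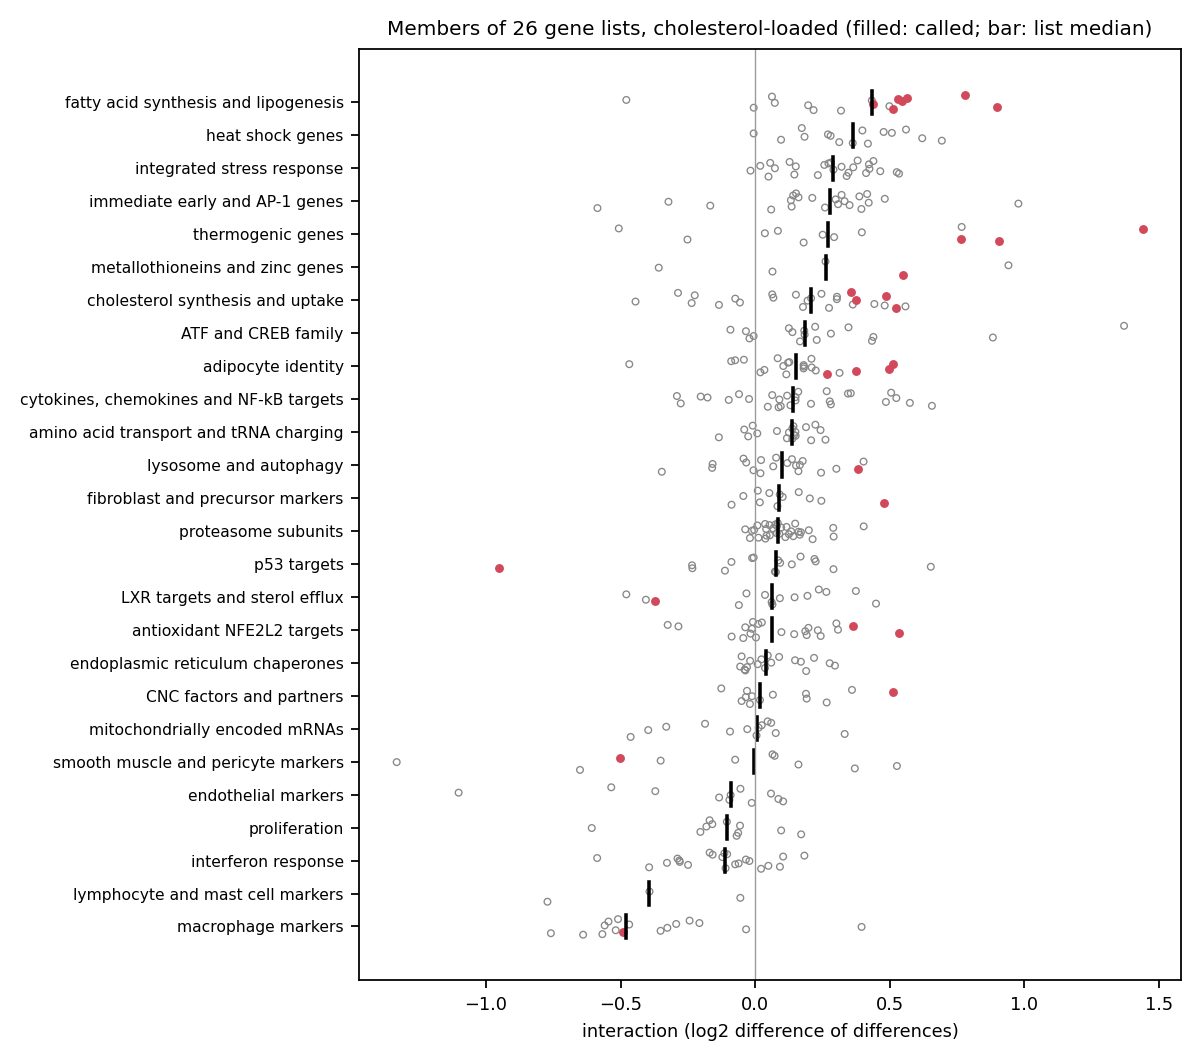
Departures from additivity (horizontal axis, log2) of the measured members of 26 gene lists (rows), with called genes filled, other genes open and the list median as a black bar. The median is 0.44 for fatty acid synthesis and -0.48 for macrophage markers.

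Among 33 proteasome subunits, the classical targets of Nfe2l1, edgeR called 0, although 29 departures were positive, with a median of 0.08, 7 at an unadjusted p below 0.05 and 1 call by DESeq2. The count was 2 without siNfe2l1 library 1 and 3 without the 4 libraries numbered 1, fits that called 524 and 697 of all genes higher. Psmb5, a catalytic subunit, had 138 ± 18 CPM with scramble, 95.4 ± 3.3 with siNfe2l1, 141 ± 5.9 with siAtf3 and 110 ± 4.3 with both (departure 0.17 ± 0.10, adjusted p = 0.402). Psmd1, of the regulatory particle, had 147 ± 7.1, 98.2 ± 5.2, 156 ± 3.2 and 110 ± 3.5 CPM in the same order (departure 0.08 ± 0.07, adjusted p = 0.589). Among 25 genes of the integrated stress response, the pathway in which Atf3 is induced, edgeR called 0 although 24 departures were positive, with a median of 0.29, 5 at an unadjusted p below 0.05 and 2 calls by DESeq2. This count of 0 depended on the libraries: edgeR called 4 of the 25 higher without siNfe2l1 library 1 (median 0.49), 7 without the 4 libraries numbered 1 and 4 in the fit of all 8 groups. Without siNfe2l1 libraries 3 and 4 the median was 0.11. Ddit3, the proapoptotic factor of this pathway, had 0.44 ± 0.32 (adjusted p = 0.522). The 7 of 33 and 5 of 25 genes at an unadjusted p below 0.05 stand beside 2588 of all 16154 genes.

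None of 28 measured cytokine, chemokine and NF-kB genes was called by edgeR or DESeq2, and 0 had an unadjusted p below 0.05. Ccl2, a monocyte attractant, had levels of 191 ± 46 CPM with scramble, 195 ± 35 with siNfe2l1, 120 ± 7.1 with siAtf3 and 136 ± 28 with both (departure 0.15 ± 0.24). Il6 had 0.57 ± 0.34 and Cxcl1 0.49 ± 0.44, SEs above the 0.142 of the median gene. Among 15 heat shock genes, which encode chaperones, 0 were called by either tool, although 14 departures were positive, with a median of 0.36 and 3 at an unadjusted p below 0.05. Hspa1a had 0.48 ± 0.30. Without siNfe2l1 library 1, edgeR called 9 of the 15 higher, and without the 4 libraries numbered 1 it called 7. Without siNfe2l1 libraries 3 and 4 the median was 0.16. Among 22 immediate early genes edgeR called 0 and DESeq2 1, with 2 positive and 2 negative departures at an unadjusted p below 0.05. Of the 22 departures 19 were positive and 3 negative, with a median of 0.28. This median was 0.15 to 0.46 over the 16 omissions and 0.04 without siNfe2l1 libraries 3 and 4. Without siNfe2l1 library 1, edgeR called 2 of these genes higher and 1 lower. The chaperone Hspa5 had 0.17 ± 0.09 (adjusted p = 0.338), and 0 of 18 endoplasmic reticulum chaperones were called by edgeR and 1 by DESeq2, with 4 at an unadjusted p below 0.05.

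Among 22 antioxidant genes driven by Nfe2l2, a relative of Nfe2l1, 2 were called higher: Tkt, the transketolase (0.36 ± 0.08, 7 of 16 fits), and Hmox1, the heme oxygenase (0.53 ± 0.13, 4 of 16 fits). DESeq2 called 4. Of the 22 departures 14 were positive and 8 negative, with a median of 0.06. Over the 16 omissions 0 to 5 were called higher and 0 to 2 lower, and without siNfe2l1 libraries 3 and 4 none was called higher. Hmox1 had 4115 ± 350 CPM with scramble, 3271 ± 507 with siNfe2l1, 3382 ± 287 with siAtf3 and 3895 ± 263 with both. Mt1, a metallothionein that binds zinc, had 769 ± 61, 657 ± 71, 521 ± 65 and 649 ± 51 CPM in that order (0.55 ± 0.12, adjusted p = 0.032, 3 of 16 fits), the only call among 5 metallothionein and zinc genes. Ctsb, the lysosomal protease cathepsin B, had 3255 to 3643 CPM with scramble, 2913 to 3231 with siNfe2l1, 1498 to 1561 with siAtf3 and 1704 to 1859 with both, 4 ranges that did not overlap (0.38 ± 0.07, adjusted p = 0.0078, all 16 fits). It was the only gene called among 20 lysosome and autophagy genes.

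In the lists not yet described edgeR called Nfe2l1 alone, 1 of 13 CNC factors and partners. It called 0 of 17 measured ATF and CREB family genes (3 at an unadjusted p below 0.05), 0 of 19 genes of amino acid transport and tRNA charging (1), 0 of 22 interferon response genes (1), 0 of 11 proliferation genes (1) and 0 of 13 mitochondrially encoded mRNAs (0). DESeq2 called 0 in each of these 5 lists. Some of these zeros depended on the libraries. Without the 4 libraries numbered 1, edgeR called 3 ATF and CREB genes and 2 amino acid and tRNA genes higher, beside 697 of all genes. It called 3 interferon genes lower there, beside 573 of all genes. Leaving out 1 library gave up to 3 ATF and CREB genes higher, 1 amino acid and tRNA gene higher and 1 proliferation gene lower.

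In control medium the same departures were measured in 16 other libraries, from a fit of all 8 groups over 16984 genes. There 328 genes were called (1.93%), 232 higher and 96 lower. The same fit of all 8 groups called 865 genes after cholesterol (5.09%), 475 higher and 390 lower. Within it 134 genes were called higher in both media, 28.2% of the cholesterol list and 57.8% of the control list, and 39 were called lower in both, 10% and 40.6%. Of the genes called higher after cholesterol in the fit of the 16 cholesterol libraries, 86 were also called higher in control medium, 49.1% of the cholesterol list and 37.1% of the control list, and 21 were called lower in both, 25% and 21.9%. No gene was called in opposite directions. Of the 175 genes called higher, 172 had a positive value in control medium, with a median of 0.31 against 0.46 after cholesterol, and of the 84 called lower 81 had a negative one, with a median of -0.27 against -0.57. The genes were chosen on the cholesterol value, so the medians are a description. Across the 11091 better expressed genes (average log2 CPM 2 or more), r was 0.42 between the settings, as a description across genes.

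Of the 36 genes named by rule and called after cholesterol, 19 were also called in control medium, in the fit of all 8 groups, and 17 were not. Called genes named after their values were seen, such as Fasn and Fads1, are not in this count. Acly in control medium had 1164 ± 87 CPM with scramble, 1097 ± 97 with siNfe2l1, 431 ± 23 with siAtf3 and 697 ± 12 with both, a departure of 0.78 ± 0.09 in the fit of all 8 groups. Trp53inp1 had 70.2 ± 2.2, 90.9 ± 13, 186 ± 18 and 131 ± 9.9 CPM (-0.88 ± 0.11), and Ucp1 5.14 ± 0.37, 2.40 ± 0.49, 3.31 ± 0.96 and 4.44 ± 0.54 CPM (1.53 ± 0.24). The lipogenic list held 7 genes called higher in control medium, with a median of 0.31. Doc2b had 1.37 ± 0.22, 1.34 ± 0.23, 0.90 ± 0.22 and 1.27 ± 0.31 CPM there (0.50 ± 0.35, not called). Of the others not called in control medium, Efna2 had -0.04 ± 0.16, the opposite sign to that after cholesterol. Cox8b had 0.06 ± 0.18 and Phospho1 0.19 ± 0.21. Mylk had -0.09 ± 0.12 and Skp2 -0.11 ± 0.15.

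The difference between the departures with and without cholesterol was called for 0 genes by edgeR (0%), with 1196 at an unadjusted p below 0.05 and a smallest adjusted p of 0.564, and for 0 genes by DESeq2 and by limma-voom. Of the 259 genes called after cholesterol, 72 had an unadjusted p below 0.05 for this difference. Among the named genes its smallest unadjusted p belonged to Efna2 (difference 0.88, adjusted p = 0.564). These values do not show that the departures were equal in both media.

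Leaving out 1 library at a time left between 92 and 926 called genes. The count without siNfe2l1 library 1 was 926, and all 259 genes called from the 16 libraries were among them. Without scramble library 2 it was 150 and without scramble library 3 it was 164. It was 143 without siNfe2l1 library 2, 106 without siNfe2l1 library 3, and 95, 106 and 107 without siAtf3 libraries 2, 3 and 4. Without libraries 1 to 4 of the both-siRNA group it was 92, 166, 117 and 148. The other 4 omissions gave 174 to 322. No called gene changed sign in any of these fits, and 81 genes were called in all 16, 62 higher and 19 lower. With siNfe2l1 libraries 3 and 4 left out together, 80 genes were called, and without library 1 of all 4 groups 1270.

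**Figure D5:**
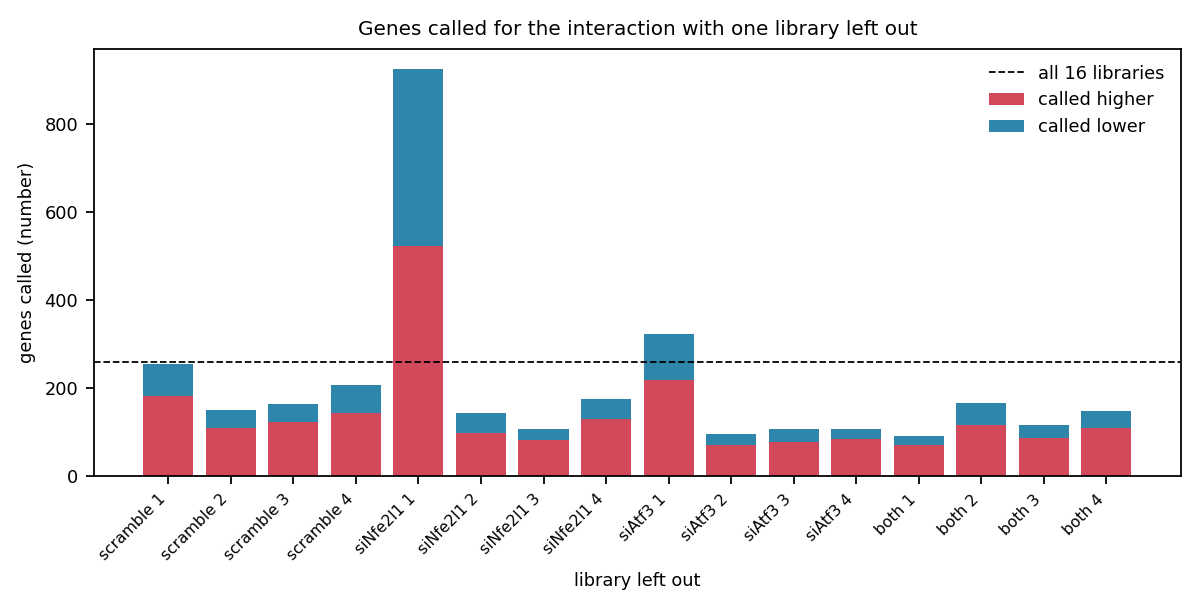
Number of genes called (vertical axis, from 0) when the library on the horizontal axis is left out, stacked as called higher (red) and called lower (blue), with the 259 genes called from all 16 libraries as a dashed line. The count rises to 926 without siNfe2l1 library 1 and lies at 92 without library 1 of the both-siRNA group.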

How the data were processed

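Poly(A) RNA of 32 libraries was sequenced, of which the 16 cholesterol libraries were used, with the 16 control libraries for comparison. The deposited values are raw read counts per gene (56748 genes). Per the submitters' processing notes, fastp, HISAT2 2.0.5, featureCounts 1.5.0-p3 and GRCm39 were used. Strand setting and treatment of reads with several alignments are not given in the sources used here. The added C in column names was read as cholesterol, since 4 siRNA treatments appear with and without it.

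Counts were analysed in R 4.3.3 with edgeR 4.0.16: filterByExpr (minimum count 10, minimum total 15; 16154 genes), TMM, group means and the robust quasi-likelihood test of the difference of differences (12 residual degrees of freedom), adjusted over all genes by the Benjamini-Hochberg method at 0.05. A further fit held all 8 groups (24 residual degrees of freedom). Total counts of 23457384 to 28391112 per library leave genes near 1 CPM on few reads. Chi-square per degree of freedom between libraries of 1 group was 3.35 to 44.97, above counting error, and no library was taken as a duplicate.

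Named were Nfe2l1 and Atf3, the 10 highest and 10 lowest departures among the protein-coding genes called whose average log2 CPM was 2 or more, up to 2 called members a list with the smallest adjusted p, and watched genes. These were 48 genes, and counts over named genes refer to them alone. All called lipogenic, cholesterol synthesis and adipocyte genes were named after their values were seen, as were list members that were not called and overlapping genes. Members, lists (26, of 447 genes) and tests were chosen with earlier results of these data known. In the list of amino acid transport and tRNA charging, 19 of 20 genes were found, some by RefSeq synonyms. Lists were described by counts and medians, without a set test. The steps were tested on simulated data. Alternatives were all 8 groups, DESeq2 1.42.0 size factors and Wald test, library totals, no filter, limma-voom (limma 3.58.1) with and without group weights, a replicate block, leaving out libraries, a false discovery rate of 0.01, expressed genes only and the linear scale. Leaving out siNfe2l1 libraries 3 and 4, and library 1 of scramble with library 1 of siAtf3, was added after seeing the data. Results of some genes are not reported here.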

Additional observations from a re-analysis of the deposited data

Results flagged for a closer look

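Within groups of 4 libraries, the highest or lowest library of a named gene was set apart when its gap to the nearest library, as a share of the group's range, exceeded Dixon's limit for 4 values. Of 192 pairs of gene and group, 12 (6.25%) passed, where chance gives about 1 in 20. Library 1 was the one apart in 5 of them: in siAtf3 for Atf3 (51.6 CPM, next 36.95), Elovl3 (3.805, next 2.38) and Mylk (28.31, next 25.54), and in scramble for Hspa5 (2988, next 2594) and Mrap (195.5, next 164.4). In siAtf3, Hspa1a was low in library 2 (331.1 CPM, next 396.3) and Psmd1 high in library 4 (160.2, next 154.7). In scramble, Zdhhc12 was high in library 4 (6.74 CPM, next 5.168), and in siNfe2l1, Epb41l5 was high in library 2 (13.56, next 11.43). With both siRNAs, Ccl2 was high in library 3 (177.9 CPM, next 125.1), Slit2 high in library 4 (7.92, next 6.973) and Laptm5 low in library 2 (18.38, next 20.85). No named gene was set apart for a departure that differed between cholesterol and control medium.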

How the results depend on the processing

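The direction of the 259 called genes did not change in any fit, including the linear CPM scale, but their number did. It was 865 (475 higher, 390 lower) with all 8 groups in the fit, 558 (367 and 191) with DESeq2's Wald test, 206 (74 and 132) with library totals, 54 (41 and 13) at a false discovery rate of 0.01, 80 (63 and 17) without siNfe2l1 libraries 3 and 4, 381 (263 and 118) without library 1 of scramble and of siAtf3, and 1270 (697 and 573) without the 4 libraries numbered 1. Leaving out each library gave 92 to 926 called, 70 to 524 higher and 22 to 402 lower. DESeq2 size factors gave 258, no filter 313, limma-voom 221, and limma-voom with group weights 243. Of the 259 genes, 108 were called in all of 8 other fits and 76 also in all 16 omissions.

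The titles share replicate numbers between groups, but 17 of 24 pairs with the same number, not all, had deviations from the group means correlated above 0.1 (-0.118 to 0.563, median 0.181, against -0.0644 for different numbers), so the numbers were not taken to pair the libraries. Of 16 libraries, 10 correlated best with their own number. With a replicate block 806 genes were called (480 higher, 326 lower), among them 3 proteasome subunits and 5 integrated stress response genes higher and 4 macrophage markers lower.

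Of 1344 values of named genes under other settings, 1085 kept their direction and side of the threshold, 253 lost the call and 2 gained it. The sign turned in 4: Ccl2 became -0.017 without scramble library 1 and -0.0056 without library 3 of both siRNAs (-0.017 to 0.27 over the 16 omissions), and Abca1 became 0.081 without scramble library 1 (-0.14 to 0.081 over the omissions) and 0.021 without library 1 of scramble and of siAtf3. The causes were not tested. The median SE of 0.142 limits what could be detected.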
